A study of Mus musculus with 18 samples.

Results

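The genes described are 9 genes of the adrenergic, angiotensin and endothelin systems of the mouse heart, chosen by name: Adrb1, Adra1a, Adra1b, Agtr1a, Agt, Ace, Edn1, Ednra and Ednrb. They were 9 of the 30072 genes in the deposited tables, and all 9 passed the filter on low counts that left 15054 genes for testing. The RNA came from CD-1 mice, an outbred strain, of both sexes and at least 8 weeks old, and the labels of single mice give no sex. In each group 6 mice were sequenced individually. By the methods, controls had isoflurane anesthesia and computed tomography imaging but no treatment beam. The other mice had the same anesthesia and imaging, and were studied 2 or 6 weeks after their hearts received 25 Gy in 1 fraction. The labels name the tissue as the septum between the ventricles and the methods name it as ventricle. No transgene was used, and no time-matched control was labelled for either time point, so both irradiated groups share the same 6 controls.

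These genes carry the main hormonal signals that set the force, rate and vessel tone of the heart. Noradrenaline from sympathetic nerves acts on beta receptors, which raise cyclic AMP through the G protein Gs and speed and strengthen the beat, and on alpha-1 receptors, which act through Gq and phospholipase C. Angiotensinogen is cut by renin and then by angiotensin-converting enzyme to angiotensin II, which narrows vessels through the type 1 receptor, also a Gq-coupled receptor. Endothelin-1, a peptide made mainly by endothelial cells, narrows vessels through the type A receptor of smooth muscle, while the type B receptor on endothelial cells relaxes them and removes the peptide.

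Estimated counts summed to between 11522979 and 15501002 per mouse, and levels are given as CPM (counts scaled to a common library size), with library sizes scaled by TMM (a trimmed mean of the log ratios between mice). A count of 3, taken as the floor, was between 0.194 and 0.26 CPM and covers counting error only. The tissue expressed heart muscle genes at high levels: the summed CPM of 10 cardiomyocyte markers lay between 33150 and 58640 over all mice. At 6 weeks, 9 of these 10 markers were lower than in controls and 9 of 10 macrophage and leukocyte markers were higher (edgeR, adjusted P under 0.05). Control mouse 4 stood apart from the other controls. It had the lowest cardiomyocyte marker sum of the controls (40200) and the highest sums of fibroblast markers (5638, others 2711 to 3526), leukocyte markers (298.7, others 116.0 to 180.6) and atrial muscle markers (1583, others 233.0 to 810.9). Most of that atrial sum was Nppa (1451 CPM), which is also listed here among genes that respond to these hormones. The atrial markers Myl7, Myl4 and Sln reached at most 58.6, 51.9 and 25.5 CPM in any control. The fold changes of the 9 genes against controls are therefore also given without this mouse. In such bulk RNA, fewer cells of a type and less RNA per cell cannot be told apart.

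Of the 9 genes, 3 passed the test at 6 weeks post-IR. Agtr1a and Adra1a were lower than in controls and Edn1 was higher, at an adjusted P under 0.05 in edgeR's quasi-likelihood test with Benjamini-Hochberg adjustment over all genes tested. At this time 13.5% of all genes tested were called higher and 11.5% lower, and 1 higher and 2 lower of 9 genes are counts close to that background. The values of both groups did not overlap for 1 of the 9, Agtr1a, where 9.23% of all genes had such groups. At 2 weeks none of the 9 was called by edgeR or by DESeq2, and 2 (Ednra and Ednrb) had an unadjusted P under 0.05. The background was 3.09% of all genes called higher and 1.93% lower, with 3.24% not overlapping and 0 of the 9 among these. Between 2 and 6 weeks none was called by edgeR, where 3.31% of all genes were higher at 6 weeks, 2.01% lower and 3.54% not overlapping, again with 0 of the 9. In that comparison 3 genes (Adra1b, Agtr1a and Edn1) had an unadjusted P under 0.05, and DESeq2 and limma voom with sample quality weights each called 1, Agtr1a. The median log2 fold change of the 9 genes was 0.01 at 2 weeks and -0.25 at 6 weeks, against 0.00 and -0.02 over all genes tested.

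**Figure D1:**
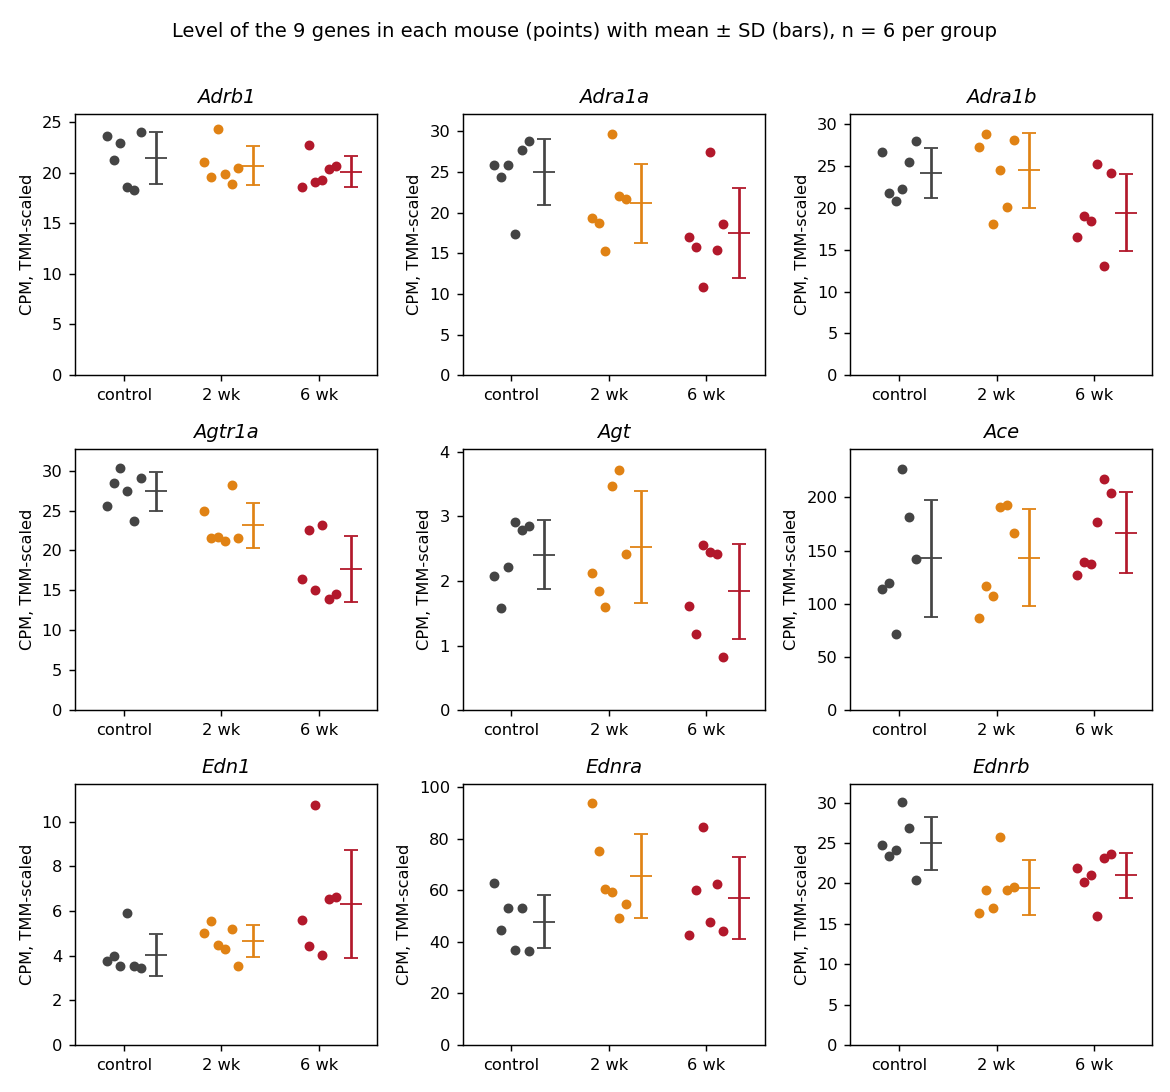
Level of each gene (CPM after TMM scaling, axes from 0) in each mouse, with points for mice in order of their number and bars for mean ± SD, n = 6 per group. The 6 Agtr1a values at 6 weeks lie between 13.9 and 23.1 CPM, below all control values, whereas for the other 8 genes the groups overlap.

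The genes of the angiotensin system were ordered from precursor to receptor. Agt (ENSMUSG00000031980, chromosome 8 of GRCm38, 124556534 to 124569706) encodes angiotensinogen, which in the body comes mainly from the liver. Its counts were few, between 11 and 56 per mouse. Control mice ranged from 1.58 to 2.91 CPM with a median of 2.51, mice at 2 weeks from 1.60 to 3.71 with a median of 2.27, and mice at 6 weeks from 0.828 to 2.56 with a median of 2.01. The groups overlapped, and 2 mice at 6 weeks lay below all controls. The log2 fold change was 0.08 at 2 weeks (edgeR, adjusted P = 0.899, 95% confidence interval -0.46 to 0.62) and -0.40 at 6 weeks (adjusted P = 0.312, -0.98 to 0.17). These were 0.15 and -0.34 without control mouse 4. The interval at 6 weeks holds both no change and a change of the size seen for Agtr1a. Of 5 liver markers, Alb, Apoa1 and Fgb had at most 3 counts in any mouse, while Ttr reached 9 and Serpina1a 17. Any part of liver RNA in the Agt counts was not tested.

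Ace (ENSMUSG00000020681, chromosome 11, 105967945 to 105989964) encodes angiotensin-converting enzyme, held on the surface of endothelial cells. It was the most abundant of the 9 transcripts and differed widely between mice of a group. Controls ranged from 71.2 CPM in control mouse 3 to 226.3 in control mouse 4, with a median of 131.0. The range was 86.4 to 192.8 at 2 weeks (median 141.5) and 126.6 to 216.9 at 6 weeks (median 157.9), and the spread of the controls covered both irradiated groups entirely. The log2 fold change was 0.01 at 2 weeks (edgeR, adjusted P = 0.992, interval -0.50 to 0.52) and 0.23 at 6 weeks (adjusted P = 0.551, interval -0.28 to 0.74). On TPM (abundances per transcript length, scaled within each mouse and not between mice) with a pseudocount of 1 the 6-week value was 0.66 and was called (limma, adjusted P = 0.0369). Relative to the median of all genes, the 6-week value was 0.37 on TPM, beside 0.24 with TMM. With TMM and without control mouse 4 the log2 fold change was 0.19 at 2 weeks (edgeR, adjusted P = 0.697) and 0.41 at 6 weeks (adjusted P = 0.23).

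Agtr1a (ENSMUSG00000049115, chromosome 13, 30336441 to 30382867) encodes the type 1 receptor for angiotensin II. Control mice ranged from 23.7 to 30.4 CPM with a median of 27.95. At 2 weeks the range was 21.2 to 28.2 with a median of 21.6, and 4 of 6 mice lay below all controls. At 6 weeks it was 13.9 to 23.1 with a median of 15.8, and all 6 mice lay below all controls. The mean fell from 27.4 ± 2.45 CPM in controls to 17.6 ± 4.14 at 6 weeks (SD, n = 6), a log2 fold change of -0.64 (SE 0.124, edgeR adjusted P = 0.000992), or 35.6% lower. The 2-week difference of -0.24 (SE 0.122, adjusted P = 0.278) had an interval from -0.50 to 0.02. Between 2 and 6 weeks it was -0.39 (SE 0.124, adjusted P = 0.0712). That value passed the threshold when mouse 2 (-0.48, adjusted P = 0.0334) or mouse 4 (-0.49, adjusted P = 0.0207) of the 6-week group was left out; these were the 2 mice with the highest levels of that group. Against controls, the call at 6 weeks held when any 1 control or 6-week mouse was left out (edgeR, log2 fold change -0.73 to -0.58, adjusted P 0.000234 to 0.00327). Without control mouse 4 the log2 fold change was -0.64 at 6 weeks (adjusted P = 0.00181) and -0.24 at 2 weeks (adjusted P = 0.308).

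The scaling between mice shifted the fold changes against controls of all 9 genes, but it changed no call or sign for Edn1 or Agt. When library size alone was used, all genes tested had a median log2 fold change of 0.15 at 2 weeks and 0.24 at 6 weeks. On TPM with a pseudocount of 1 this median was 0.18 and 0.29. On TPM the Agtr1a log2 fold change at 6 weeks was -0.16 and was no longer called (limma, adjusted P = 0.356), and with library size only it was -0.37. Relative to the median of all genes, these values were -0.44 and -0.62, beside -0.62 with TMM.

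The 3 genes of the endothelin system were ordered as ligand and receptors. Edn1 (ENSMUSG00000021367, chromosome 13, 42301476 to 42307990) encodes the precursor of endothelin-1, and its counts were between 38 and 139 per mouse. Controls ranged from 3.45 to 5.90 CPM with a median of 3.66, and 5 of the 6 lay at 4.0 or below while control mouse 4 had the highest value. At 2 weeks the range was 3.52 to 5.54 (median 4.72). At 6 weeks it was 4.003 to 10.8 (median 6.06), and 3 of 6 mice lay above all controls. The mean rose from 4.03 ± 0.936 CPM to 6.33 ± 2.42 at 6 weeks (SD, n = 6), a log2 fold change of 0.63 (SE 0.211, edgeR adjusted P = 0.0349), or 55.0% higher. The 2-week difference was 0.20 (SE 0.217, adjusted P = 0.651) and that between 2 and 6 weeks 0.43 (SE 0.206, adjusted P = 0.2304).

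The Edn1 call was near the threshold. Without mouse 3 of the 6-week group, which had the highest Edn1 level and the lowest Adra1a level of all mice, the log2 fold change was 0.42 (adjusted P = 0.0956). The adjusted P was also above 0.05, lying between 0.0533 and 0.0711, when 6-week mouse 5 or 6 or control mouse 1, 2, 3, 5 or 6 was left out, with log2 fold changes of 0.59 to 0.63. Without control mouse 4 the log2 fold change was 0.78 at 6 weeks (edgeR, adjusted P = 0.0112) and 0.35 at 2 weeks (adjusted P = 0.387). The summed endothelial markers lay between 1098 and 1261 CPM in controls and between 1193 and 1556 at 6 weeks, with 3 of the 10 markers higher and 3 lower (edgeR), and the leukocyte sum between 293.6 and 422.5 CPM at 6 weeks lay above all controls but mouse 4. Their part in the rise of Edn1 was not tested beyond the ratio to endothelial markers given with the other ratios.

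Ednra (ENSMUSG00000031616, chromosome 8, 77663031 to 77724464) encodes the type A receptor, found on smooth muscle, heart muscle and fibroblasts. Controls ranged from 36.7 to 62.7 CPM (median 48.9), mice at 2 weeks from 49.3 to 93.8 (median 59.9) and mice at 6 weeks from 42.8 to 84.6 (median 54.0). All 6 mice at 2 weeks lay above the median of the controls, 2 of them above every control. The log2 fold change of 0.45 at 2 weeks (SE 0.184, edgeR adjusted P = 0.169) did not pass the test, nor did that of 0.25 at 6 weeks (SE 0.184, adjusted P = 0.357). Both passed on TPM with a pseudocount of 1 (0.66 and 0.60, limma, adjusted P = 0.0234 and 0.013), and at 6 weeks also with library size only (0.51, adjusted P = 0.0463). Relative to the median of all genes, the 6-week value was 0.32 on TPM and 0.26 with library size only, beside 0.27 with TMM. At 2 weeks it was 0.48 on TPM, beside 0.45 with TMM. With TMM and without control mouse 4 the 2-week and 6-week log2 fold changes were 0.39 and 0.18.

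Ednrb (ENSMUSG00000022122, chromosome 14, 103814625 to 103844402) encodes the type B receptor. Controls ranged from 20.4 to 30.1 CPM (median 24.5), mice at 2 weeks from 16.3 to 25.8 (median 19.2) and mice at 6 weeks from 16.0 to 23.6 (median 21.5). At 2 weeks, 5 of 6 mice lay below all controls and mouse 4 lay above the control median. The 2-week difference was -0.36 (SE 0.117, edgeR adjusted P = 0.0827), and it was called when that mouse was left out (-0.46, adjusted P = 0.0206). At 6 weeks it was -0.25 (SE 0.116, adjusted P = 0.126) with TMM scaling, 0.01 with library size only and 0.14 on TPM. Relative to the median of all genes, these 6-week values were -0.232, -0.235 and -0.149. Without control mouse 4 the 2-week and 6-week log2 fold changes with TMM were -0.30 and -0.19.

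**Figure D2:**
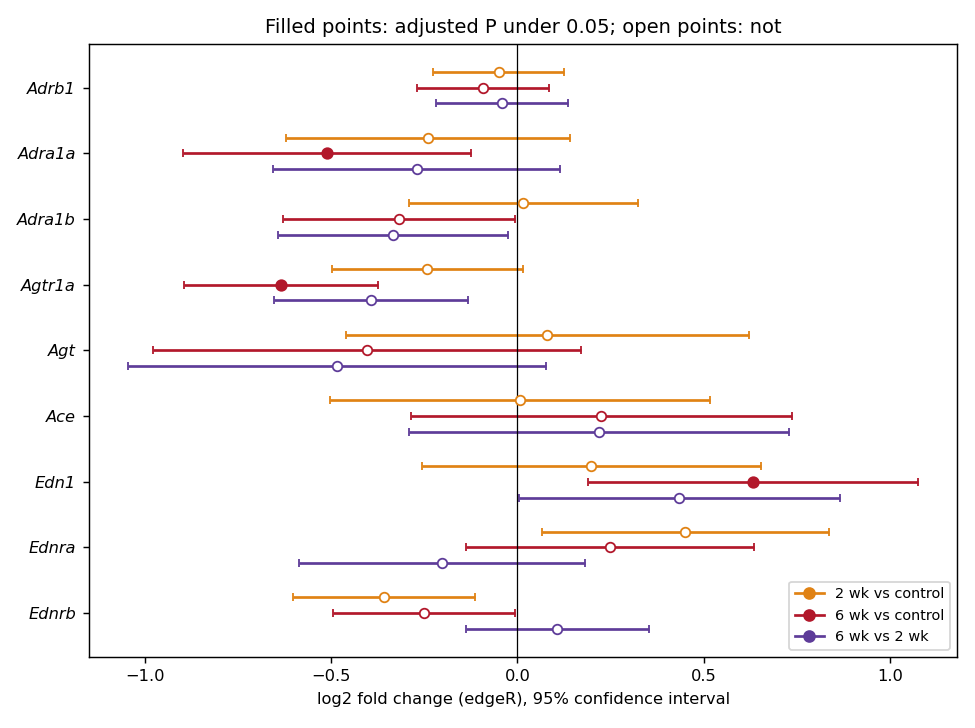
Log2 fold change of each gene in 3 comparisons (edgeR), with points for the estimate and bars for its 95% confidence interval. Filled points, with adjusted P under 0.05, are Adra1a (-0.51), Agtr1a (-0.64) and Edn1 (0.63), all at 6 weeks against controls.

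Among the adrenergic receptors, Adrb1 (ENSMUSG00000035283, chromosome 19, 56722199 to 56733113) encodes the beta-1 receptor, the main beta receptor of ventricular muscle. Its fold changes had the smallest SE of the 9. Controls ranged from 18.3 to 23.98 CPM (median 22.1), mice at 2 weeks from 18.9 to 24.3 (median 20.1) and mice at 6 weeks from 18.6 to 22.8 (median 19.8), so that the 3 groups covered nearly the same range. The log2 fold change was -0.05 at 2 weeks (edgeR, adjusted P = 0.788, interval -0.23 to 0.13) and -0.09 at 6 weeks (adjusted P = 0.471, interval -0.27 to 0.09), and without control mouse 4 it was -0.09 and -0.13. The sign depended on the scaling: at 6 weeks it was 0.17 with library size only (adjusted P = 0.145) and 0.26 on TPM with a pseudocount of 1 (limma, adjusted P = 0.0344), and relative to the median of all genes these were -0.07 and -0.03.

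Adra1a (ENSMUSG00000045875, chromosome 14, 66635251 to 66771168) encodes the alpha-1A receptor, which is found in part of the heart muscle cells. Controls ranged from 17.4 to 28.8 CPM (median 25.9), with control mouse 4 lowest and the other 5 at 24.4 or above. Mice at 2 weeks ranged from 15.2 to 29.7 (median 20.5) and mice at 6 weeks from 10.8 to 27.5 (median 16.4). At 6 weeks 4 of 6 mice lay below all controls, while mouse 4 of this group had 27.5 CPM. The mean fell from 25.0 ± 4.07 CPM to 17.5 ± 5.54 (SD, n = 6), a log2 fold change of -0.51 (SE 0.184, edgeR adjusted P = 0.0493), or 29.8% lower. At 2 weeks the log2 fold change was -0.24 (SE 0.182, edgeR adjusted P = 0.492), and without control mouse 4 it was -0.33 (adjusted P = 0.312).

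The Adra1a call was close to the threshold. It was lost when any of control mice 1, 2, 3, 5 and 6 or 6-week mice 1, 2, 3, 5 and 6 was left out, with adjusted P between 0.0698 and 0.108 and log2 fold changes from -0.53 to -0.41. Without control mouse 4 it was -0.60 (adjusted P = 0.0204) and without 6-week mouse 4 it was -0.68 (adjusted P = 0.00503). With library size only it was -0.25 (adjusted P = 0.284). The cardiomyocyte marker sum lay between 33150 and 41390 CPM at 6 weeks and between 40200 and 58640 in controls, and relative to these markers within each mouse Adra1a differed by -0.06 on the log2 scale.

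Adra1b (ENSMUSG00000050541, chromosome 11, 43774606 to 43901210) encodes the alpha-1B receptor. Controls ranged from 20.8 to 28.04 CPM (median 23.9), mice at 2 weeks from 18.1 to 28.8 (median 25.95) and mice at 6 weeks from 13.03 to 25.2 (median 18.8). The 2-week values straddled those of the controls on both sides, and 4 of 6 mice at 6 weeks lay below all controls. The log2 fold change was 0.02 at 2 weeks (SE 0.147, edgeR adjusted P = 0.969). At 6 weeks it was -0.32 (SE 0.148, adjusted P = 0.128), but 0.06 on TPM with a pseudocount of 1. Relative to the median of all genes, these 6-week values were -0.30 and -0.22. With TMM and without control mouse 4 the 2-week and 6-week log2 fold changes were -0.01 and -0.34. Between 2 and 6 weeks the log2 fold change was -0.33 (SE 0.148, edgeR adjusted P = 0.197).

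**Figure D3:**
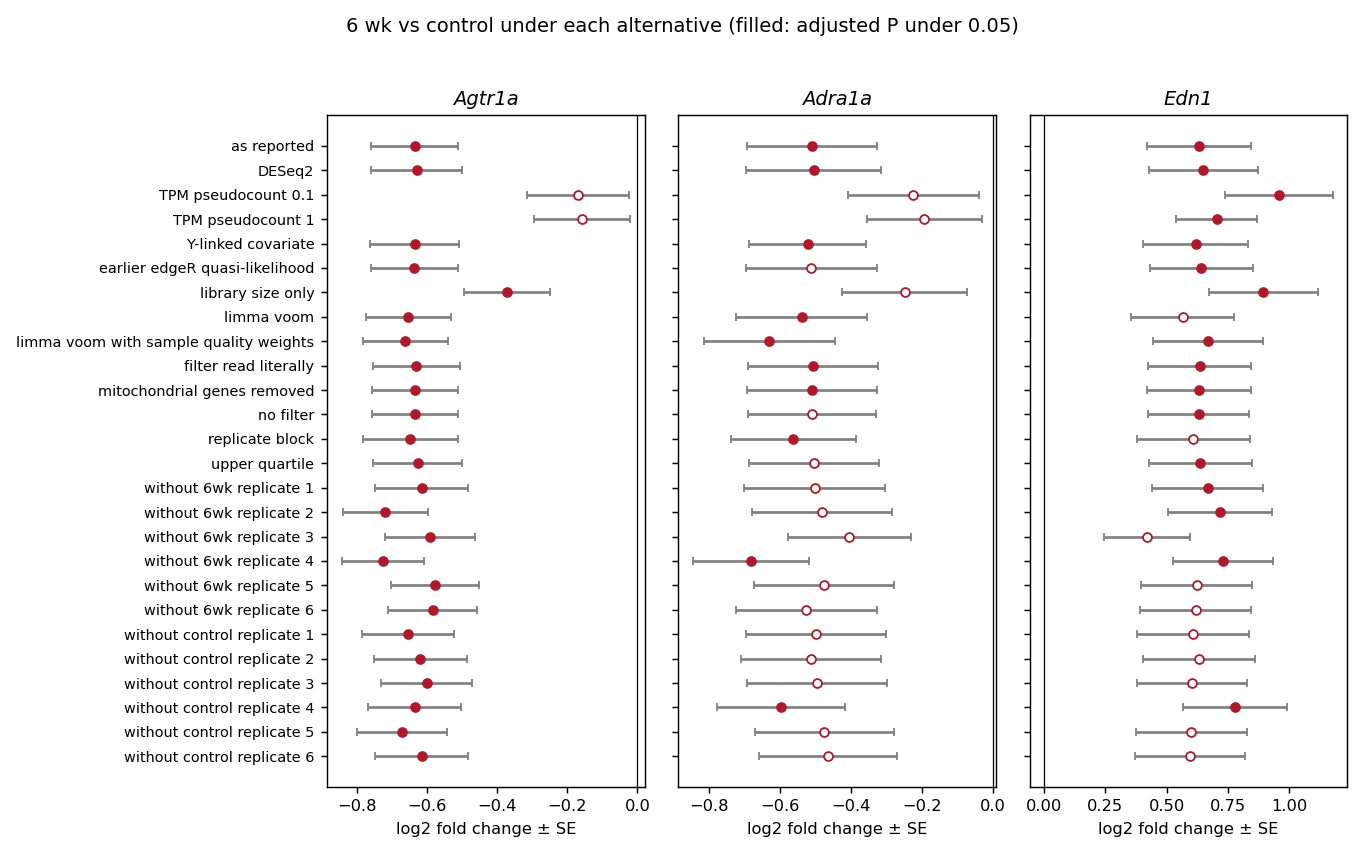
Log2 fold change at 6 weeks against controls ± SE for Agtr1a, Adra1a and Edn1 under each alternative, with filled points where the adjusted P was under 0.05. Agtr1a is filled in all rows but the 2 on TPM, whereas 10 of the 12 rows that leave out a control or 6-week mouse are open for Adra1a and 8 of 12 for Edn1.

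Levels can be set side by side between genes only per length, as TPM. In controls the order was Ace (29.6 ± 12.8 TPM, SD, n = 6), Agtr1a (14.6 ± 1.59), Ednra (14.4 ± 4.10), Adra1b (8.00 ± 1.66), Adra1a (6.96 ± 1.09), Ednrb (6.49 ± 1.25), Adrb1 (5.93 ± 0.893), Edn1 (1.68 ± 0.473) and Agt (1.28 ± 0.309). Of the 8 neighbouring pairs in this order, Adrb1 and Edn1 alone had ranges that did not overlap, so the ranges of the other neighbours do not separate them. Within single control mice, Adra1b was above Adra1a in 5 of 6, Adra1a above Ednrb in 5 of 6 and Ednrb above Adrb1 in 4 of 6. At 2 weeks Ednra (23.3 ± 5.93 TPM) stood next to Ace and above Agtr1a (15.4 ± 3.25). At 6 weeks Ednra (22.5 ± 6.54) stood above Agtr1a (13.2 ± 2.93) in all 6 mice, against 3 of 6 controls in which Agtr1a was the higher. At 6 weeks Ace (44.6 ± 9.53 TPM) did not overlap with Ednra, nor Edn1 (3.49 ± 1.46) with Agt (1.26 ± 0.482).

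Ratios of genes within a mouse do not depend on the scaling between mice. A total of 14 log2 ratios of CPM plus 0.5 were compared in 3 contrasts, with exact two-sided permutation tests adjusted over the 42. None had an adjusted P under 0.05. The smallest P that 6 mice against 6 allow is 0.00216. After adjustment over the 42, a ratio that alone had this P would not pass 0.05. The lack of calls therefore does not show that the ratios were unchanged.

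Between the endothelin receptors, Ednra to Ednrb had a mean log2 ratio of 0.91 ± 0.351 in controls, of 1.71 ± 0.478 in the 2-week group and of 1.39 ± 0.411 in the 6-week group (SD). The difference from controls was 0.80 at 2 weeks (exact permutation test, P = 0.00433, adjusted P = 0.0606) and 0.48 at 6 weeks (exact permutation test, P = 0.0541, adjusted P = 0.182). Control mice lay between 0.28 and 1.32 and mice at 2 weeks between 1.19 and 2.49. The ratio of Adra1a to Adra1b differed by -0.25 in the 2-week group and by -0.20 in the 6-week group (exact permutation test, adjusted P = 0.351 and 0.462).

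Against the mean log2 level of the cardiomyocyte markers, Adrb1 was 0.40 higher at 6 weeks, and the groups did not overlap, with controls from -7.77 to -7.34 and mice at 6 weeks from -7.31 to -6.98. This difference had the smallest P the design allows (exact permutation test, P = 0.00216, adjusted P = 0.0606). Adrb1 itself had a log2 fold change of -0.09 at 6 weeks, while the 10 cardiomyocyte markers had a median of -0.46 and all genes tested -0.02. A gene at the median of all genes would therefore also be higher against these markers. On the same measure Adra1b differed by 0.15 (exact permutation test, adjusted P = 0.555) and Adra1a by -0.06 (exact permutation test, adjusted P = 0.891), although without 6-week mouse 3 the latter was 0.09. Against the smooth muscle and pericyte markers, Agtr1a differed by -0.60 at 6 weeks (exact permutation test, P = 0.00433, adjusted P = 0.0606) and by -0.20 at 2 weeks (exact permutation test, adjusted P = 0.250). The Adrb1 and Agtr1a ratios at 6 weeks passed the threshold when 6-week mouse 4 was left out (0.43 and -0.68, exact permutation test, adjusted P = 0.0455 for both). For Adrb1, P was already the smallest possible with all mice and could not fall. Its adjusted P therefore moved only through the P values of the other ratios, and its call is no stronger evidence. The sum of the smooth muscle and pericyte markers overlapped between controls (1072 to 1313 CPM) and 6 weeks (951.0 to 1355).

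Against the fibroblast markers Agtr1a differed by -0.48 at 6 weeks (exact permutation test, adjusted P = 0.182). Edn1 differed by 0.51 from the endothelial markers at 6 weeks (exact permutation test, adjusted P = 0.155). Ednrb differed from the same markers by -0.33 at 2 weeks (exact permutation test, adjusted P = 0.125) and by -0.28 at 6 weeks (exact permutation test, adjusted P = 0.157). Ednra differed by 0.48 from the smooth muscle and pericyte markers at 2 weeks (exact permutation test, adjusted P = 0.0909).

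Beyond these 9 genes, 7 lists held 87 other genes of the 3 systems and their signaling, of which 74 passed the filter. Of the 74, the 6-week group had 15 above the controls and 8 below, where 13.5% of all genes tested were higher and 11.5% lower. At 2 weeks 3 were higher and 0 lower by edgeR (3.09% and 1.93% of all genes). Between 2 and 6 weeks 5 were higher and 2 lower at 6 weeks (3.31% and 2.01% of all genes). The median log2 fold change over the 74 was -0.02 at 6 weeks, the same as over all genes tested.

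Among the other adrenergic receptors, Adra2a was below the filter, with at most 10 counts in a mouse.

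The genes that make, take up and break down noradrenaline had 0 of 9 called at 2 weeks and 4 of 9 lower at 6 weeks, beside 1.93% and 11.5% of all genes called lower at these times. Pnmt, which turns noradrenaline into adrenaline, had the largest fold change (log2 -1.21, edgeR adjusted P = 0.0110) at a low level, 1.045 ± 0.358 CPM in controls and 0.442 ± 0.126 at 6 weeks. Dbh, which makes noradrenaline from dopamine, went from 6.49 ± 1.45 to 3.999 ± 1.17 CPM (log2 -0.70, adjusted P = 0.0473). Slc22a3, a transporter that clears noradrenaline outside nerves, fell by 0.56 and Maob, which oxidizes amines, by 0.45 on the log2 scale (adjusted P = 0.0282 and 0.0461). Th, the first enzyme of the pathway, had at most 3 counts in any mouse and Slc6a2, the noradrenaline transporter of nerves, at most 2. The summed nerve and Schwann cell markers were 10.7 to 13.5 CPM in controls and 7.78 to 13.7 at 6 weeks, with Dbh itself among these markers.

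Of 13 other angiotensin genes tested, 2 were higher and 1 lower at 6 weeks, counts close to the 13.5% and 11.5% of all genes, and none was called at 2 weeks. Mme, the peptidase neprilysin that cleaves angiotensin peptides and natriuretic peptides, went from 16.3 ± 1.18 CPM to 8.43 ± 3.01 (log2 -0.96, edgeR adjusted P = 0.000364). Prcp, which removes the last residue of angiotensin II, rose by 0.70 on the log2 scale (adjusted P = 0.000395) with groups that did not overlap. Bdkrb2, the B2 receptor for bradykinin, a peptide that angiotensin-converting enzyme breaks down, was near the floor in controls (0.363 ± 0.225 CPM) and at 1.19 ± 0.569 CPM at 6 weeks (log2 1.77, adjusted P = 0.00291). Ren1, which encodes renin, had 1 count in a mouse at most, and the other angiotensin receptors Agtr1b and Agtr2 had at most 1 and 2.

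Of 3 other endothelin genes tested, 1 was lower at 6 weeks (11.5% of all genes): Edn3, which encodes endothelin-3. It went from 5.30 ± 3.41 CPM to 2.30 ± 0.940 (log2 -1.19, edgeR adjusted P = 0.0250), with a wide spread among controls and overlapping groups. Ece1, which cuts the endothelin precursors to their active form, had 113.7 ± 30.1 CPM in controls and 111.0 ± 32.4 at 6 weeks and was not called. Edn2 was below the filter.

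Among 26 G proteins and effectors, 6 were higher and 2 lower at 6 weeks, beside 13.5% and 11.5% of all genes. The higher genes included Gnai2 and Gnai3, which inhibit adenylyl cyclase, Gnaq and Plcb3 of the Gq pathway, Gna13, and Pde4b, which degrades cyclic AMP. Gnai2 had 143.3 CPM on average in controls, 181.5 at 2 weeks and 202.1 at 6 weeks, with log2 fold changes of 0.34 and 0.50 (edgeR, adjusted P = 0.00244 and 9.78e-06) and groups that did not overlap at either time. The lower genes were Prkaca (log2 -0.30, adjusted P = 0.000546) and Prkar2a (log2 -0.23, adjusted P = 0.00375), a catalytic and a regulatory subunit of protein kinase A. Adcy5, an adenylyl cyclase of heart muscle, was lower at 6 than at 2 weeks (log2 -0.33, adjusted P = 0.0303).

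Of 7 receptor kinases and arrestins, which switch such receptors off, 4 were higher at 6 weeks and 0 lower, beside 13.5% and 11.5% of all genes: Arrb2 (log2 0.93, edgeR adjusted P = 1.90e-05), Arrb1 (log2 0.40), Grk6 (log2 0.35) and Grk2 (log2 0.15, adjusted P = 0.0203). Among 11 genes known to respond to these hormones, 1 was higher at 2 weeks and 2 at 6 weeks, beside 3.09% and 13.5% of all genes. Tgfb1, a growth factor, rose by 0.44 at 2 weeks and 0.73 at 6 weeks on the log2 scale (adjusted P = 0.00105 and 7.39e-07). The summed leukocyte markers had a median of 164.3 CPM in controls and 325.6 at 6 weeks, and their part in these changes was not tested.

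**Figure D4:**
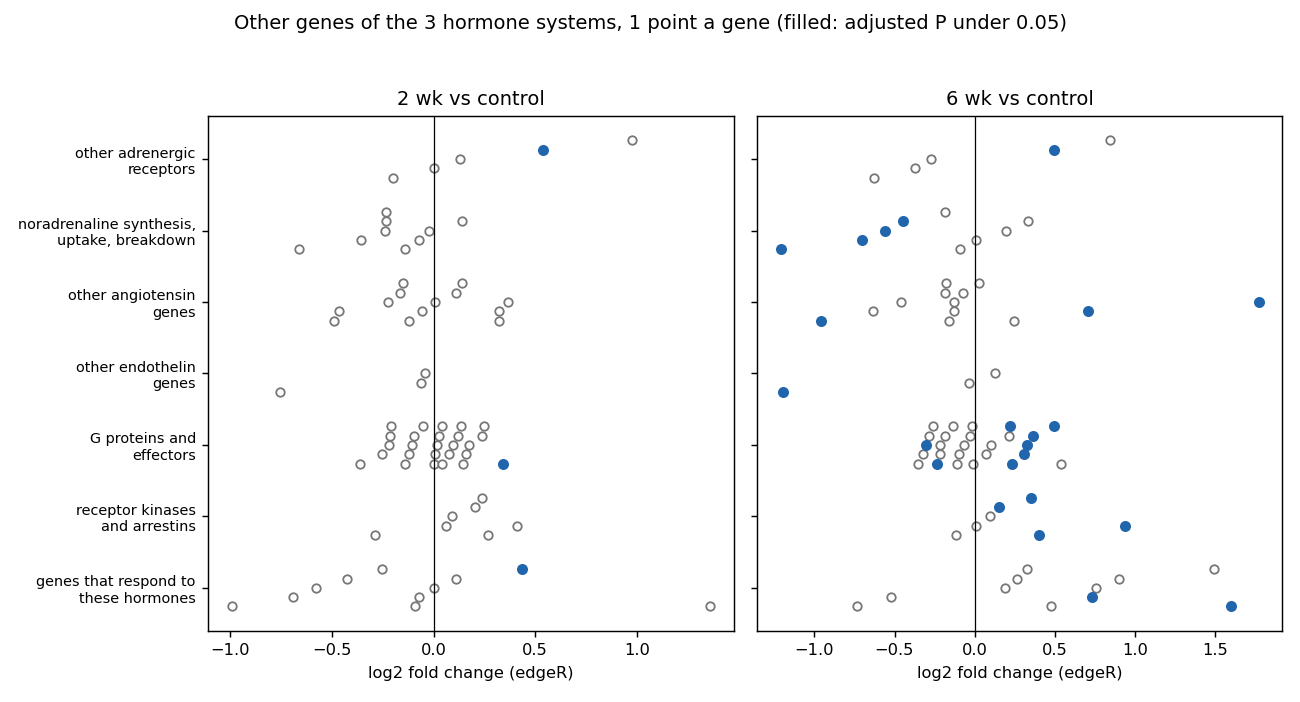
Log2 fold change (edgeR) of the other genes of the 3 systems at 2 and 6 weeks against controls, 1 point a gene in 7 lists, filled where the adjusted P was under 0.05. At 2 weeks 3 points are filled, all to the right of 0, and at 6 weeks 23 are filled, 15 to the right and 8 to the left.

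Within groups, levels of the 9 genes were compared over the 18 mice after each group's mean was removed, in 36 pairs of genes. Edn1 and Adra1a had the largest Pearson coefficient in size, r = -0.72 (permutation test within groups, P = 0.00417, adjusted over 36 pairs 0.150), with Spearman's rho = -0.62 (permutation test, P = 0.0137, adjusted 0.246). Without the 2 mice farthest from the median of Adra1a it was r = -0.46. Agtr1a and Ednrb had rho = -0.77 (permutation test, P = 0.00137, adjusted 0.0493) but r = -0.57 (permutation test, P = 0.0122, adjusted 0.219), and r = -0.46 without the 2 farthest mice.

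As a description over the same 18 mice and libraries, the gene whose log2 CPM followed each member most closely was found among all genes tested. For Agtr1a it was Fdft1, an enzyme of sterol synthesis (Pearson r = 0.91, and 0.78 with group means removed), and for Adra1a Fitm1, a protein of lipid droplets (0.88 and 0.83). For Adra1b it was Grb2 (0.89 and 0.84), for Adrb1 Dido1 (0.76 and 0.89), for Edn1 Vstm5 (0.85 and 0.79), for Ednra Stox2 (0.75 and 0.67), for Ednrb Kpna4 (0.78 and 0.63) and for Agt Ttc19 (0.82 and 0.79). Ace was followed by Gpnmb (0.89 and 0.88), Serpina3n (0.89 and 0.89) and C7, a complement component (0.85 and 0.92). The width of the spread of these genes between mice was not compared with that of Ace.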

How the data were processed

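RNA of 18 mice was analysed, 6 per group. The authors used STAR for alignment, Salmon (1.0 in the submitters' processing notes) for transcript abundance and tximport for gene sums. The deposited estimated counts carry no scaling between mice. TPM values deposited beside them are from the same Salmon run, scaled within a mouse. The strandedness of counting is not given in the sources used here.

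Counts were rounded and analysed with edgeR 4.0.16 in R 4.3.3: genes reaching 0.23 CPM in 6 or more mice, TMM scaling, 1 quasi-likelihood fit of the 3 groups, two-sided tests and Benjamini-Hochberg adjustment within each comparison. The SE was derived from the log2 fold change and its F statistic. Ratios used exact permutation tests, and the 36 correlations used 100000 permutations of mice within groups. The code was tested on simulated counts. The study fitted weighted limma models, which are among the alternatives here.

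The labels give each mouse a replicate number. Same-numbered mice of different groups did not deviate together (median r = 0.03 over 18 pairs), so the numbers were not taken as pairs.

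All 9 members are named. Of the other lists, genes called against controls could be named, and Adcy5 and Ece1 were named after their values were seen. Some genes of the lists are not reported here. Members and lists were chosen with earlier results of these data known, so no count over them is independent support. Coordinates were taken from GENCODE M21 (GRCm38). Alternatives were DESeq2 1.42.0, limma 3.58.1 (voom, plain or weighted by sample quality), an earlier edgeR fit, other scalings and filters, TPM with pseudocounts 1 and 0.1, a replicate block, a covariate of Y-linked genes, and omission of each mouse in turn. Results with a mouse left out are given only for comparisons that include the group of that mouse.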

Additional observations from a re-analysis of the deposited data

Results flagged for a closer look

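In 2 of 27 groups of 6 mice (9 genes in 3 groups), 1 mouse lay far from the others by Dixon's criterion, which chance meets in about 1 in 20 groups. The highest control value of Edn1, 5.90 CPM in control mouse 4, lay far above the other 5 controls, and this mouse also had the highest fibroblast, leukocyte and atrial marker sums of the controls. The highest Ednrb value at 2 weeks, 25.8 CPM in mouse 4 of that group, lay far above the other 5 mice. The part of other differences between these mice and the rest was not tested.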

How the results depend on the processing

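Of the 9 genes, 0 were called at 2 weeks, against 1 on TPM with either pseudocount and 0 to 1 when 1 mouse was left out. At 6 weeks 3 were called, 2 to 4 under the settings that kept all mice, and 1 to 3 with a mouse left out. On TPM 4 of the 9 were called, where 7463 and 7472 of all 15054 genes tested were (pseudocounts 0.1 and 1). Among the 9, Edn1 remained, Agtr1a and Adra1a were lost, and Ace, Adrb1 and Ednra were gained. Between 2 and 6 weeks 0 were called, 1 with DESeq2, 1 with limma voom and sample quality weights, and 0 to 1 with a mouse left out. Among the 74 other genes, 3 were called at 2 weeks, against 7 with DESeq2, 18 and 17 on TPM with pseudocounts 0.1 and 1, 13 with library size only, 5 with voom and sample quality weights, and 2 to 5 with a mouse left out (5 without control mouse 1 or 4). Of all 15054 genes tested, 755 were called at 2 weeks, and 1189 with DESeq2. On TPM these were 3026 and 2813, with library size only 1789, and with voom and sample quality weights 789. At 6 weeks 23 of the 74 were called, and 40 and 41 on TPM, beside 3760, 7463 and 7472 of all genes tested. Between 2 and 6 weeks 7 of the 74 were called (802 of all genes tested), and 4 to 14 of the 74 with a mouse left out. The count was 4 without 2-week mouse 1 or 6-week mouse 1, 3 or 6, and 14 without 6-week mouse 4. Of the ratios, 0 were called in any comparison, and with a mouse left out 0 to 1 between 6 and 2 weeks and 0 to 2 at 6 weeks (1 and 2 without 6-week mouse 4).

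Signs changed both with the scaling between mice (16 of the 17 reversals under settings that kept all mice) and with a mouse left out (16 reversals), all but those of Adrb1 at 6 weeks on TPM for values that did not pass the test. With pseudocounts 0.1 and 1 on TPM, the log2 fold change of Adrb1 was 0.163 and 0.142 at 2 weeks (0.102 with library size only), 0.292 and 0.257 at 6 weeks (0.172), and 0.129 and 0.115 between them (0.0703). For Ednrb at 6 weeks it was 0.156 and 0.137 (0.00806 with library size only), for Adra1b at 6 weeks 0.0706 and 0.0647, and for Agtr1a at 2 weeks 0.0572 and 0.0548. These alternatives do not scale between mice by TMM, and they moved the median of all genes in the same direction. Adra1b at 2 weeks was -0.00424 with limma voom. With the median in place of the mean of the endothelial markers, the ratio of Ednrb at 6 weeks differed by 0.0342; the cause was not tested.

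With 1 mouse left out, values near 0 changed sign: Ace at 2 weeks (-0.127 to 0.189), Adra1b at 2 weeks (-0.0355 to 0.0893), Agt at 2 weeks (-0.0622 to 0.185), Adrb1 between 2 and 6 weeks (-0.08 to 0.0102) and the ratio of Adra1a to cardiomyocyte markers at 6 weeks (-0.173 to 0.086).

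With the replicate number as a block in the fit, Edn1 at 6 weeks was 0.609 (adjusted P = 0.0719) and lost its call. The numbers are not taken to pair the mice: same-numbered pairs had correlations between -0.0828 and 0.106, and 3 of 18 mice correlated best with their own number. The replicate block left every other call of the 9 genes as it was.

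Edn1 at 6 weeks was also not called with limma voom (adjusted P = 0.0584). Adra1a at 6 weeks was not called with the earlier edgeR fit (adjusted P = 0.0509), without a filter (0.06), with upper quartile scaling (0.0515), with library size only or on TPM. Agt had the fewest counts of the 9 genes, 11 to 56 per mouse, and what depth and the spread between mice each add to its SE was not separated.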
